A study of Mus musculus with 12 samples.

Results

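The genes described here, Ccr7, S1pr1, Klf2, Cd44, Cxcr3, Cxcr4 and Ccr9, steer T cells into lymphoid organs, out of them and through tissue. They were chosen by name for these known roles, with earlier results of these data known. They were found by symbol in the table of gene counts, where they are 7 of the 13780 genes listed. All 7 were among the 13767 genes tested, those that reached 1 CPM (counts scaled to the depth of the library) in no fewer than 3 libraries.

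The study measured RNA by sequencing in mouse CD8+ T cells, the T cells that kill infected and tumor cells, to ask how sodium lactate present during activation changes them. Cells came from spleens of wild type C57BL/6J mice of 8 to 12 weeks, purified with magnetic beads that bind CD8. There were 4 libraries of naïve cells, lysed straight after isolation and never stimulated. There were 4 libraries of cells activated in plain media for 72 h with beads carrying antibodies to CD3 and CD28 and with 10 U/ml of IL-2, and 4 of cells activated the same way with 40 mM sodium lactate. The control for lactate was plain media and not sodium chloride, so a difference in sodium or osmolality cannot be told apart from one in lactate. The naïve libraries came from 4 distinct mice. The activated libraries came from 5 mice, of which 3 gave a media and a lactate library each: media 1 and lactate 1, media 3 and lactate 2, and media 4 and lactate 4. Replicate numbers are those of the sample titles, and so do not all follow the mice.

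Total counts in naïve replicates 1 to 4 were 17662393, 16439750, 18601223 and 17698150. In media they were 20922872, 18452128, 17696330 and 15842423, and with lactate 19778026, 18732745, 14726904 and 21478137. The depth was thus similar across groups, and each of the members other than Ccr9 had at least 141 counts in every library. Library numbers in the labels fall into a low run (naïve 1 to 3, media 1 to 3, lactate 1 and 2) and a high run (naïve 4, media 4, lactate 3 and 4). Differences within a run are given beside the pooled ones, and those in the high run rest on 1 naïve and 1 media library.

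Naïve T cells circulate between blood and lymphoid organs. CCR7 brings them into lymph nodes along the chemokines CCL19 and CCL21, and S1PR1 lets them leave along a gradient of sphingosine 1-phosphate that is high in blood and lymph. The transcription factor KLF2 switches on S1pr1 and holds T cells in a resting, recirculating state, and activated T cells lower it, lose S1PR1 and stay in the organ for a time before effector cells leave with receptors such as CXCR3 that lead to inflamed tissue.

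The CD8 label was checked against 10 marker genes of CD8+ T cells. All 10 were detected in every library, with Cd8a the most abundant in each but naïve replicate 4, where Trbc2 was (571 CPM). Cd8a had 388 to 1208 CPM in naïve cells, 821 to 1068 in media and 766 to 931 with lactate. The markers' summed level ran from 3128 to 6038 CPM in naïve cells, from 4511 to 5400 in media and from 3515 to 4315 with lactate, so every lactate library lay below every media library. Lactate against media, Cd3e (log2 fold change -0.91, adjusted p = 0.000269), Cd3g (-0.80, 0.0091) and Cd3d (-0.74, 0.00233) fell, Cd2 rose (0.51, 0.0091) and the other 6 markers did not pass the test. Between lactate and media 11.1% of all tested genes fell and 13.9% rose. Against naïve cells 2 markers rose and 1 fell in media (28.5% and 29% of all tested genes), and 3 fell and 0 rose with lactate (32% and 33%).

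The naïve libraries also carried markers of other cells. The summed level of 10 B cell markers was 1319, 1850, 770.1 and 1251 CPM in naïve replicates 1 to 4, and 7.33 to 22.9 CPM in the 8 activated libraries. The 12 myeloid and dendritic markers summed to 1677, 1320, 590 and 544 CPM in naïve cells (Csf1r the most abundant) and 8.15 to 19.5 CPM after activation, where 3 to 9 of them were at 0. All 10 B cell and all 12 myeloid markers were detected in every naïve library. The 6 red cell markers in the table summed to 98.2 to 4300 CPM in naïve cells (Hba-a1 the most abundant) and to at most 1.90 CPM after activation. The 5 NK cell markers summed to 8.35 to 19.3 CPM in naïve cells, 0.709 to 1.34 CPM in media and 2.10 to 5.64 CPM with lactate (Klre1 the most abundant), and the 4 CD4+ T cell markers to 44.3 to 76.5, 48.0 to 60.7 and 83.7 to 96.6 CPM (Zbtb7b the most abundant in every activated library, and Cd4 in naïve replicates 1 and 4). The NK gene Ncr1 had 202 counts in naïve cells and 0 in media, at least 70.2-fold higher in naïve cells with 3 counts over the group as the floor. In media against naïve cells all 10 B cell, 12 myeloid, 6 red cell and 5 NK markers fell (29% of all tested genes), as did 3 of the 4 CD4 markers while Zbtb7b rose. With lactate against naïve cells 10, 12, 6, 4 and 2 of them fell (32% of all tested genes) and 1 CD4 marker rose. Some of these markers, such as Fcgr1, Siglech and Slc4a1, at 0 in every activated library, passed the filter only with the naïve libraries. The filter thus in part fixed these counts against naïve cells. Lactate against media, 4 B cell markers fell, Zbtb7b (0.78) and Klre1 (1.67) rose, and 0 myeloid and 0 red cell markers were called by edgeR (4 and 0 had an unadjusted p under 0.05, DESeq2 called 2 and 0, and the model with the mouse as a block called 1 and 0). The part of these cells in the differences from naïve cells was not tested.

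Naïve replicate 4 stood apart from the other naïve libraries. The summed level of 14 immediate early and heat shock genes, which respond within minutes to handling and stress, was 16930, 19310 and 19220 CPM in naïve replicates 1 to 3 and 2256 CPM in replicate 4, near the 1252 to 2810 CPM of the activated libraries. Hspa1b, the most abundant of them in naïve replicates 1 to 3, had 2930, 4582 and 4722 CPM there and 5.10 CPM in naïve replicate 4. As replicate 4 is also the only naïve library of the high run, these differences and the run cannot be told apart. The activated libraries of the high run also stood apart for some of these genes: Fos had 54.6, 50.4 and 48.1 CPM in media 4, lactate 3 and lactate 4 and 1.18 to 3.49 CPM in the other activated libraries, and Jun 313, 233 and 245 CPM against 19.9 to 32.9 CPM. Lactate holds 2 of these libraries and media 1. Of these 14 genes 11 fell in media and 9 with lactate against naïve cells (29% and 32% of all tested genes), and 0 were called between lactate and media by edgeR (4 had an unadjusted p under 0.05, DESeq2 called 3, and the model with the mouse as a block called 5). Results against naïve cells are given with and without it where it matters.

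**Figure D1:**
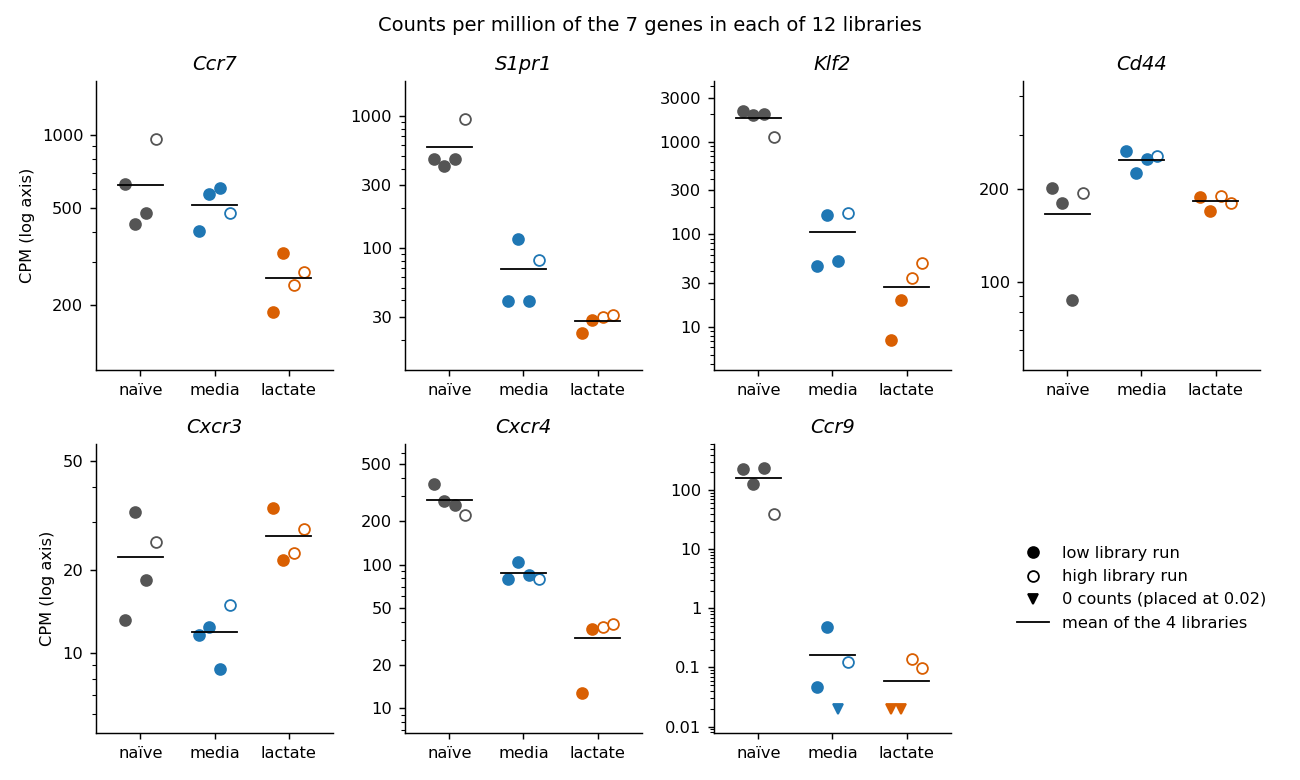
CPM (log axis, a different range for each gene) of the 7 genes in each library, with replicates 1 to 4 from left to right, filled points for the low and open points for the high library run, triangles for 0 counts and a line at the mean. Every lactate library lies below every media library for Ccr7, S1pr1, Cd44 and Cxcr4 and above it for Cxcr3, while Ccr9 is near 0 in both activated groups.

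Lactate against media, 3 of the 7 genes passed the threshold (adjusted p up to 0.01) and are called changed, beside 25.1% of all tested genes. Cxcr3 rose (1 gene higher, beside 13.9% of all tested genes), and Ccr7 and Cxcr4 fell (2 genes lower, beside 11.1%). The groups did not overlap for 5 genes, as for 44.7% of all tested genes. In these bulk libraries, fewer cells carrying a transcript and less of it in each cell cannot be told apart. The median log2 fold change of the 7 genes was -1.30, and that of all tested genes 0.00.

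Of the receptors that lead into and hold cells in lymphoid tissue, Ccr7 (ENSMUSG00000037944, chromosome 11, 99144196 to 99155077, minus strand, in GRCm38) had 401, 571, 603 and 477 CPM in media replicates 1 to 4 and 187, 328, 242 and 274 CPM with lactate. Every lactate library was below every media library, with lactate replicate 1 the lowest. Media had a mean of 513 ± 91.7 CPM and lactate of 258 ± 59.2 CPM (SD, n = 4 each), and the log2 fold change was -0.99 (SE 0.25, adjusted p = 0.00721). Within the 3 mice that gave both libraries the log2 difference was -1.10, -0.88 and -0.80, and within the low and the high run it was -1.06 and -0.89. The call was close to the threshold. It was lost, with an adjusted p just above 0.01, when naïve replicate 1 was left out. Leaving out a media library ended it for replicates 2 (adjusted p = 0.0236), 3 (0.0226) and 4 (0.0126), and leaving out a lactate library ended it for replicates 1 (0.0243), 3 (0.0234) and 4 (0.0178), with log2 fold changes from -1.03 to -0.87. The low run alone, an alternative added once the data were known, gave 0.0236. The whole range of the adjusted p for Ccr7 was 0.000299 to 0.0243 in 26 alternatives.

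Cxcr4 (ENSMUSG00000045382, chromosome 1, 128588199 to 128592293, minus strand) encodes the receptor for CXCL12, which draws cells to bone marrow and to niches within lymphoid organs. It had 78.8, 103.9, 84.5 and 79.6 CPM in media replicates 1 to 4 and 12.7, 35.7, 36.7 and 38.3 CPM with lactate. The groups did not overlap, the media libraries lay close together, and lactate replicate 1 was far below the other lactate libraries. The mean was 86.7 ± 11.7 CPM in media and 30.8 ± 12.1 CPM with lactate (SD over 4 libraries each), and the log2 fold change was -1.49 (SE 0.28, adjusted p = 0.00146). The call was kept under all 26 alternatives, with adjusted p from 7.5e-07 to 0.00796 and log2 fold changes from -1.86 to -1.23. Within mice the log2 difference was -2.62, -1.24 and -1.05, the first being the mouse of lactate replicate 1, and within the runs -2.05 and -1.08.

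Cxcr3 (ENSMUSG00000050232, chromosome X, 101731535 to 101734269, minus strand) is the receptor for the interferon-induced chemokines CXCL9, CXCL10 and CXCL11 and marks effector cells bound for inflamed tissue. It had 11.6, 12.4, 8.75 and 15.0 CPM in media replicates 1 to 4 and 33.7, 21.8, 23.0 and 28.3 CPM with lactate. Every lactate library was above every media library. The mean was 12.0 ± 2.57 CPM in media and 26.7 ± 5.45 CPM with lactate (SD over 4 libraries each), and the log2 fold change was 1.16 (SE 0.26, adjusted p = 0.00419), and the log2 difference was 1.52, 1.31 and 0.91 within mice and 1.31 and 0.76 within the runs. Leaving out media replicate 1 (adjusted p = 0.0126), 2 (0.0131) or 3 (0.0151) ended the call, as did leaving out lactate replicate 1 (0.0150) or 4 (0.0126), with log2 fold changes from 1.03 to 1.18, and so did the low run alone (0.0205). In 26 alternatives the adjusted p of Cxcr3 lay between 0.000197 and 0.0205.

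S1pr1 (ENSMUSG00000045092, chromosome 3, 115710433 to 115715072, minus strand) is the exit receptor. It had 39.9, 117.4, 39.5 and 80.6 CPM in media replicates 1 to 4 and 22.9, 28.6, 30.1 and 31.0 CPM with lactate. The groups did not overlap, but the media libraries spread 2.98-fold, with replicates 2 and 4 high, while the lactate libraries spread 1.36-fold. The mean was 69.3 ± 37.4 CPM in media and 28.1 ± 3.66 CPM with lactate (SD, n = 4 each), and the log2 fold change of -1.30 (SE 0.36) had an adjusted p of 0.0124, which missed the threshold. With the mouse as a block in the model, which leaves the comparison to the 3 mice with both libraries, the log2 fold change was -0.88 and the adjusted p 0.00424. Within these mice the log2 difference was -0.80, -0.46 and -1.38, and within the runs -1.15 and -1.40. S1pr1 also passed without naïve replicate 4 (adjusted p = 0.00392), media replicate 1 (0.00721) or media replicate 3 (0.00749), and the adjusted p ran from 0.000627 to 0.0486 over 26 alternatives.

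Klf2 (ENSMUSG00000055148, chromosome 8, 72319033 to 72321656, plus strand), the transcription factor upstream of S1pr1, had 45.6, 162.7, 51.4 and 168.6 CPM in media replicates 1 to 4 and 7.22, 19.5, 33.5 and 48.5 CPM with lactate. Media replicates 2 and 4 were again the high ones, and lactate replicate 4 lay above media replicate 1, so the groups overlapped (two-sided p = 0.0571 by exact permutation of 4 against 4 libraries, whose 70 arrangements can give no p below 0.0286). The mean was 107.1 ± 67.7 CPM in media and 27.2 ± 17.8 CPM with lactate, and the log2 fold change of -1.98 (SE 0.56) had an adjusted p of 0.0134. With the mouse as a block it was -1.91 (adjusted p = 0.000589). Every mouse with both libraries was lower with lactate, by a log2 difference of -2.64, -1.40 and -1.79, and the runs gave -2.60 and -2.06. Klf2 passed without media replicate 1 (adjusted p = 0.00886) or lactate replicate 4 (0.00922), the 2 libraries that overlap. In 26 alternatives its adjusted p lay between 0.000589 and 0.0458.

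Cd44 (ENSMUSG00000005087, chromosome 2, 102811141 to 102901665, minus strand), the receptor for hyaluronan that activated and memory T cells carry at high levels, had 264.6, 225, 249.9 and 255 CPM in media replicates 1 to 4 and 188, 169.7, 190.2 and 181 CPM with lactate. The libraries within each of these groups lay closer together than for any other member, and the groups did not overlap. The log2 fold change was -0.45 (SE 0.20, adjusted p = 0.0917), above the threshold. The model takes its estimate of spread from all 3 groups, and Cd44 varied 2.30-fold between naïve libraries. A fit to the media and lactate libraries alone gave -0.45 (adjusted p = 0.00118), the mouse as a block -0.51 (0.00237) and the fit without naïve replicate 3, its lowest library, -0.46 (0.00164). Within mice the log2 difference was -0.49, -0.56 and -0.50, and within the runs -0.46 and -0.46. In 26 alternatives its adjusted p lay between 0.00118 and 0.264. For the protein the direction differs: the paper reports more CD44 with lactate by flow cytometry, measured against sodium chloride and not plain media.

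Ccr9 (ENSMUSG00000029530, chromosome 9, 123678439 to 123784330, plus strand), the receptor for CCL25 that leads cells to the small intestine, had 1, 9, 0 and 2 counts in media replicates 1 to 4 and 0, 0, 2 and 2 counts with lactate. All 8 activated libraries were close to no detection. The ratio of media to lactate from the summed counts, 12 against 4, was 2.99 with a 95% interval of 0.905 to 12.7 that covers counting error only, so no difference was detectable at this depth. The fitted log2 fold change of -1.47 (SE 1.80, adjusted p = 0.555) rests on media replicate 2, which held 9 of the 12 counts, and without it 3 counts were left in media and the fitted value was 0.01. Within the runs the log2 difference was -1.02 and -0.10, values that depend on the prior count.

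**Figure D2:**
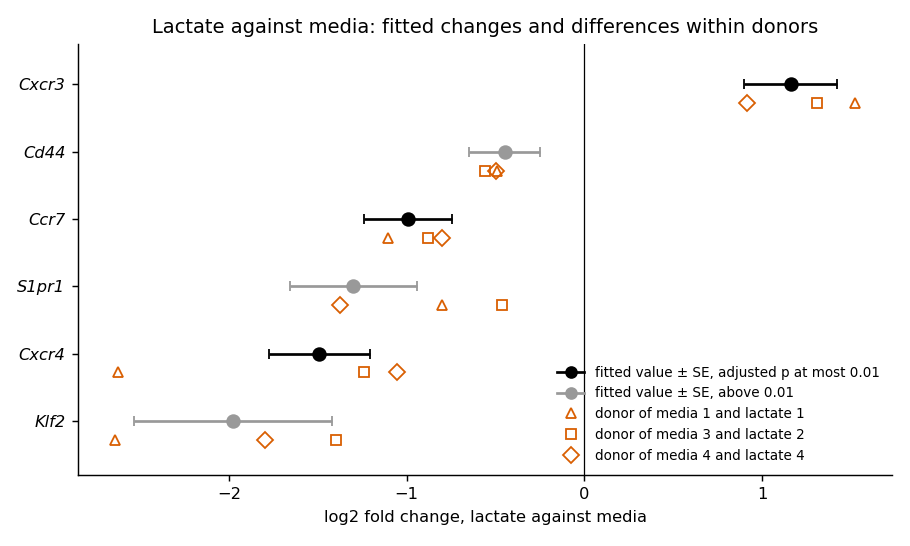
Fitted log2 fold change between lactate and media (x axis) with its SE for the 6 members detected in activated cells (black where the adjusted p is at most 0.01, grey otherwise), and the log2 differences within each of the 3 mice that gave both libraries (open symbols). Cxcr3 lies to the right of 0 in every mouse and the other members to the left in every mouse.

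Against naïve cells, activation in media changed 5 of the 7 genes, beside 57.5% of all tested genes. All 5 fell, beside 29% of all tested genes that fell and 28.5% that rose. Activation with lactate changed 5 genes, beside 65% of all tested genes, and all 5 fell, beside 32% that fell and 33% that rose. These comparisons share the naïve libraries, and each is given by its own values.

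Ccr9 had 231.5, 128.9, 239 and 39.7 CPM in naïve replicates 1 to 4, from 708 to 4433 counts. Naïve replicate 4 was the lowest, and every naïve library was far above every activated one. From the summed counts, 11393 against 12, naïve cells held 990 times the level of media (95% interval 567 to 1920), and against the 4 counts with lactate 2960 times (1150 to 10900). The adjusted p of Ccr9 was 2.9e-07 for media and 1.72e-07 for lactate, and within each run every naïve library was above every activated library. The log2 difference in the low and the high run was -9.84 and -7.31 for media and -10.86 and -7.41 for lactate. With so few activated counts these values depend on the prior count. Without media replicate 2 the ratio of naïve cells to media was 2980 (1020 to 14400, 3 counts in media), and without lactate replicate 3 that to lactate was 4780 (1320 to 39400, 2 counts). In the low run alone lactate held 0 counts of Ccr9, and naïve cells were at least 2600-fold higher with 3 counts over the group as the floor. Of the exons of Ccr9, 18.8% overlap AC165425.1 on the opposite strand, 2.62% overlap Gm17200 on the same strand and 0.214% overlap Slc6a20a on the opposite strand, and whether the counting used strand is not stated, so part of its counts is uncertain. No other member overlaps the exons of another gene.

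Klf2 had 2141, 1933, 2023 and 1118 CPM in naïve replicates 1 to 4. Replicate 4 was the lowest and still far above every activated library. Its mean of 1804 ± 465 CPM (SD, n = 4) fell by 4.08 on the log2 scale in media (SE 0.60, adjusted p = 5.91e-05) and it fell by 6.05 with lactate (SE 0.66, adjusted p = 3.45e-06). Within the low and the high run the log2 difference was -4.80 and -2.73 for media and -7.41 and -4.79 for lactate. With naïve replicate 4 as the only naïve library, an alternative added once the data were known, the log2 fold changes were -3.48 (adjusted p = 0.00232) and -5.46 (0.000118). In the low run alone the change with lactate was -7.30 (adjusted p = 5.23e-05).

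S1pr1 had 470, 416.5, 470 and 955 CPM in naïve replicates 1 to 4. Here replicate 4 was far above the others, opposite to its place for Klf2, and no naïve library came near an activated one. The mean of 578 ± 253 CPM (SD, n = 4) fell by 3.06 on the log2 scale in media (SE 0.38, adjusted p = 1.31e-05) and it fell by 4.36 with lactate (SE 0.40, adjusted p = 7.87e-07). With naïve replicate 4 alone the changes were -3.88 (adjusted p = 2.79e-05) and -5.18 (3.46e-06). Within the low and the high run the log2 difference was -2.98 and -3.56 in media and -4.14 and -4.96 with lactate.

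Cxcr4 had 367, 277, 259 and 221 CPM in naïve replicates 1 to 4. The naïve libraries lay within 1.66-fold of each other and above every activated library. It fell by 1.70 on the log2 scale in media (SE 0.28, adjusted p = 0.000161) and it fell by 3.19 with lactate (SE 0.30, adjusted p = 9.53e-07). Both calls were kept under all 26 alternatives, and within the runs the log2 difference was -1.75 and -1.47 in media and -3.80 and -2.56 with lactate.

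Ccr7 had 626, 429.5, 476 and 961 CPM in naïve replicates 1 to 4. Replicate 4 was the highest, and the naïve and the media libraries overlapped. In media its log2 fold change was -0.28 (SE 0.25, adjusted p = 0.33), which became 0.00 (adjusted p = 0.997) without naïve replicate 4 and -0.996 (0.00736) with replicate 4 as the only naïve library. Within the low run the log2 difference was 0.04 and within the high run -1.01. With lactate Ccr7 fell by 1.27 (SE 0.25, adjusted p = 0.000489), with no overlap, by 0.99 without naïve replicate 4 and by 2.00 with it as the only naïve library. Within the low and the high run the log2 difference with lactate was -1.02 and -1.90. Over 26 alternatives the adjusted p for lactate ran from 1.95e-07 to 0.00886.

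Cxcr3 had 13.1, 32.6, 18.4 and 25.4 CPM in naïve replicates 1 to 4. This spread overlapped both activated groups. In media it fell by 0.90 on the log2 scale (SE 0.26, adjusted p = 0.00826), a call that was lost without naïve replicate 2 (-0.75, adjusted p = 0.0171) or 4 (-0.84, 0.0174), media replicate 1 (-0.89, 0.0219), 2 (-0.92, 0.0179) or 3 (-0.78, 0.0287) or lactate replicate 2 (-0.90, 0.0103), with the title number as a block (-0.89, 0.0102) and in the low run alone (-1.03, 0.0206). The call of Cxcr3 was kept in 16 of 26 alternatives, whose adjusted p ran from 0.000879 to 0.0287. With lactate the log2 fold change against naïve cells was 0.26 (SE 0.26, adjusted p = 0.386), which became -0.02 with naïve replicate 4 as the only naïve library. Within the low and the high run the log2 difference was -0.87 and -0.75 in media and 0.44 and 0.01 with lactate.

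Cd44 had 201, 179.6, 87.4 and 194 CPM in naïve replicates 1 to 4. Replicate 3 was the lowest by a wide gap, and all 4 lay below every media library. In media the log2 fold change was 0.59 (SE 0.20, adjusted p = 0.0193), which missed the threshold, and it passed with the likelihood ratio test of edgeR (0.59, adjusted p = 0.00908, the lowest of a range to 0.0982 over 26 alternatives). Within the runs the log2 difference was 0.74 and 0.39. With lactate it was 0.14 (SE 0.20, adjusted p = 0.545) and became -0.16 (0.144) without naïve replicate 3 and -0.19 with naïve replicate 4 as the only naïve library, and within the runs it was 0.28 and -0.07. The naïve level of this memory marker is given beside the 11 markers of memory CD8+ T cells, which summed to 790, 998, 856 and 874 CPM in naïve cells, 1289 to 1596 CPM in media and 1758 to 2283 CPM with lactate, with Il2rb the most abundant. Of these markers 4 rose and 3 fell in media against naïve cells (28.5% and 29% of all tested genes), and 4 rose and 3 fell with lactate against naïve cells (33% and 32%). Between lactate and media 1 rose and 2 fell (13.9% and 11.1%). Eomes rose (1.86, adjusted p = 0.00078), and Ccl5 (-1.84, 0.000836) and Gzmk (-2.76, 0.00105) fell. Gzmk had at most 18 counts in a media library and 2 in a lactate library. With the mouse as a block Il2rb (0.47, adjusted p = 0.00808) and Nkg7 (0.50, 0.00739) were also called higher with lactate. Without the block neither Il2rb (0.102) nor Nkg7 (0.386) passed.

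Levels of different genes are compared per gene length, as TPM (counts divided by gene length and scaled to a common sum). In naïve cells Klf2 was the most abundant member at 3316 ± 805 TPM (SD, n = 4), above 99.8% of all tested genes. Ccr7 (1086 ± 459 TPM), S1pr1 (654 ± 312 TPM) and Cxcr4 (529.5 ± 114 TPM) followed. Ccr7 was above both in every naïve library, while S1pr1 was above Cxcr4 in replicates 3 and 4 only. Cd44 (83.5 ± 27.5 TPM), Ccr9 (52.8 ± 31.4 TPM) and Cxcr3 (44.0 ± 15.9 TPM) came last. The order of Ccr9 against either of the others changed between libraries, and Cd44 was above Cxcr3 in all 4. The TPM of Ccr9 uses a length of 10260 bases, from 6 annotated transcripts, so its place depends on that length. In CPM its naïve mean was 160, beside 166 for Cd44. In media Ccr7 led at 900 ± 169 TPM, above 99.1% of genes. Klf2 (199 ± 122.5 TPM) followed, with Cxcr4 (166 ± 24.6 TPM), Cd44 (127 ± 9.30 TPM) and S1pr1 (78.6 ± 42.4 TPM) next, then Cxcr3 at 23.9 ± 4.50 TPM and Ccr9 at 0.056 TPM. In every media library Cxcr4 was above Cd44 and Klf2 above S1pr1. By TPM the order of Klf2 against Cxcr4 and Cd44, and of Cd44 against S1pr1, changed between libraries. With lactate the order was Ccr7 (411 ± 95.1 TPM), Cd44 (84.8 ± 5.14 TPM), Cxcr4 (53.3 ± 20.1 TPM), Cxcr3 (48.8 ± 11.3 TPM), Klf2 (45.5 ± 28.7 TPM), S1pr1 (29.1 ± 2.82 TPM) and Ccr9 (0.0176 TPM). Here Cd44 was above Cxcr4 in every library. The order of Cxcr4, Cxcr3 and Klf2, and of S1pr1 against Klf2 and Cxcr4, changed between libraries. Klf2 thus went from above 99.8% of tested genes in naïve cells to above 94% in media and 72.1% with lactate, and S1pr1 from 98.7% to 82.7% and 61.2%. Ccr7 was above 99.3%, 99.1% and 97.8% of tested genes in naïve cells, media and lactate.

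Over the 12 libraries, the genes most like each member by the Pearson correlation of log2 CPM were Fbxl20 (r = 0.967), Oga (0.964) and Prkcz (0.963) for Ccr7. For S1pr1 they were Sh3bp5 (0.995), Slfn1 (0.99) and Retreg1 (0.99). For Klf2 they were Slc49a4 (0.988), H2-D1 (0.987) and 1810034E14Rik (0.987). The libraries fall into 3 groups, and correlations within a group were not tested. Sh3bp5 had 160 CPM in naïve cells, 38.4 in media and 20.5 with lactate. For Cxcr4 the closest were E130215H24Rik (0.988), Mtss1 (0.988) and Slc49a4 (0.98), for Ccr9 A530021J07Rik (0.993), Il6ra (0.992) and Gsdmd (0.992), for Cd44 Scd1 (0.906), Fam129a (0.868) and Bmpr2 (0.867), and for Cxcr3 Tma16 (0.902), Fadd (0.894) and S100a4 (0.893). Slc49a4 was thus near both Klf2 and Cxcr4, with 48.7, 16.0 and 7.15 CPM in naïve cells, media and lactate.

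Of 16 other chemokine receptors and related guidance receptors tested, 1 was higher with lactate than in media and 2 were lower by edgeR, beside 13.9% and 11.1% of all tested genes, with a median log2 fold change of 0.23. DESeq2 called 3 higher and 3 lower. With the media and lactate libraries alone 9 of the 16 passed the filter, of which 3 were higher and 3 lower, with a median of 0.50. The median of all 16 was -0.13 without lactate replicate 1. Ccr4, the receptor for CCL17 and CCL22 on T cells that go to skin, had 11.1, 7.80, 12.7 and 17.5 CPM in media replicates 1 to 4 and 60.9, 47.3, 68.7 and 65.0 CPM with lactate. Every lactate library was above every media library, and Ccr4 rose by 2.30 on the log2 scale (SE 0.37, adjusted p = 0.000548), the largest change with lactate among the receptors called. Gpr183, which reads oxysterols and places cells at the edge of follicles, had 17.1, 18.4, 12.9 and 19.9 CPM in media and 5.64, 7.34, 4.17 and 5.49 CPM with lactate. Gpr183 fell by 1.59 (SE 0.20, adjusted p = 0.000133), without overlap. Cxcr6, a receptor of tissue-resident T cells, fell by 1.22 (SE 0.25, adjusted p = 0.00263), from 7.94 ± 2.46 to 3.41 ± 0.93 CPM (SD, n = 4 each), with lactate replicate 4 above media replicate 3, and missed the threshold in the low run alone (-1.39, adjusted p = 0.0139). Ccr8 (1.70, adjusted p = 0.0103) and Cxcr5 (1.18, adjusted p = 0.0131), named here after their values were seen, did not pass.

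Against naïve cells, edgeR called 12 of these 16 receptors lower and 0 higher in media (DESeq2 13 and 1), beside 29% and 28.5% of all tested genes, with a median log2 fold change of -3.79 (-0.03 over all tested genes), the same with the genes at 0 set to their bound. Only 9 of the 16 passed the filter in the media and lactate libraries alone. The others passed only with the naïve libraries, where they are high, so the filter in part fixed the counts and medians against naïve cells. With lactate 13 fell and 2 rose (32% and 33% of all tested genes), Ccr4 (3.54, adjusted p = 4.58e-06) and Ccr8 (1.93, adjusted p = 0.00212). Several of those that fell are known from other blood cells, and they fell along with the B cell and myeloid markers above. Ccr3, a receptor of eosinophils, had 4115 counts in naïve cells and 0 in media, at least 1430-fold higher in naïve cells when 3 counts over the group are taken as the floor. Xcr1, a receptor of dendritic cells, had 998 counts in naïve cells and 0 in both activated groups, at least 347-fold higher than in media. Cxcr2, a neutrophil receptor, had 689 counts in naïve cells and 3 in media, a ratio of 240 (95% counting interval 81.6 to 1160), and 563 (101 to 22300) without media replicate 4. Ccr1 had 432 counts in naïve cells and 3 in media, a ratio of 150 (51.1 to 731, adjusted p = 1.92e-05). Media replicate 4 held all 3, and without it Ccr1 was at least 118-fold higher in naïve cells.

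**Figure D3:**
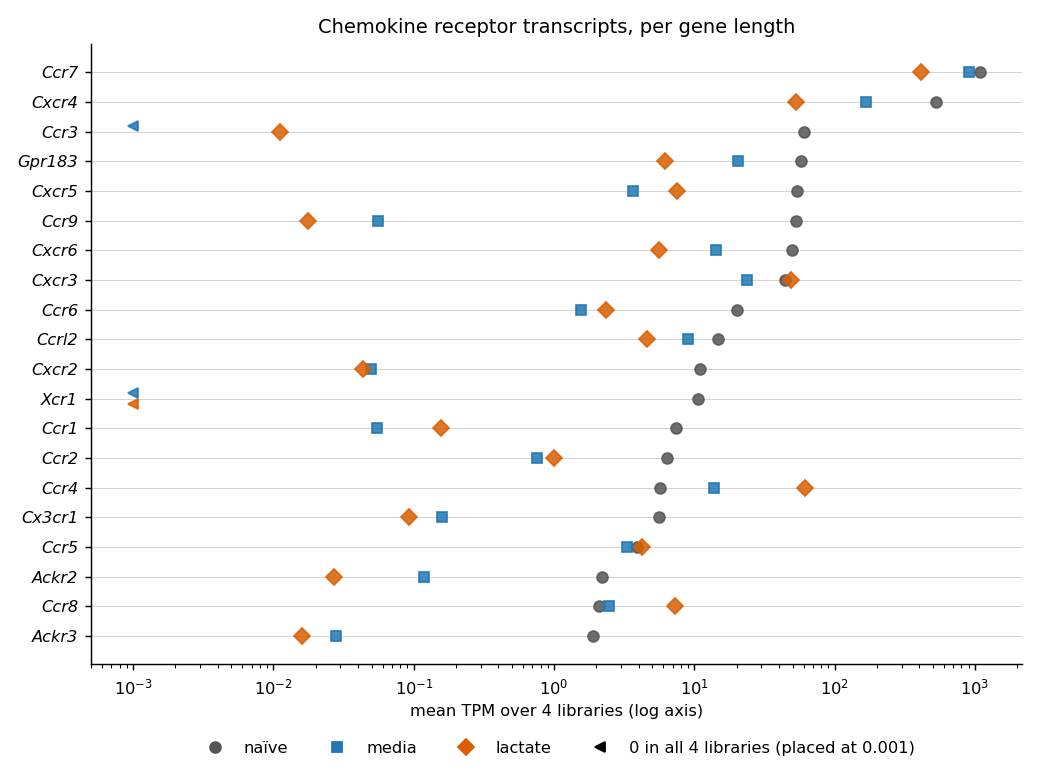
Mean TPM over 4 libraries (x axis, log scale) of the 20 chemokine and related receptors tested, ordered by their level in naïve cells, with triangles at the left edge for genes at 0 in all 4 libraries. Ccr7 is the highest in every group, and Ccr4 lies above its naïve level in both activated groups.

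Of the ligands of the members, 3 were tested and 0 were called between lactate and media by edgeR, 0 had an unadjusted p under 0.05, and 0 were called by DESeq2 or limma voom. With the mouse as a block 2 were tested and 0 called. The median log2 fold change was 0.35, but -0.16 with the mouse as a block and -0.035 with limma voom. It ran from -0.098 without lactate replicate 4 to 1.335 without media replicate 4, so its direction was not stable. Against naïve cells 1 fell in media and 1 with lactate (29% and 32% of all tested genes). Cxcl9, a ligand of CXCR3, had 1145 counts in naïve cells and 3 in media, a ratio of 398 (95% counting interval 136 to 1930), and 936 (168 to 37000) without media replicate 4. Cxcl10 had 5.55, 0.723 and 1.43 CPM in naïve cells, media and lactate, and Ccl25, the ligand of CCR9, 5.14, 8.17 and 6.44 CPM. The activated means of Cxcl10 rest on the high run, with 2.07 CPM in media replicate 4 and 2.62 and 2.99 CPM in lactate replicates 3 and 4. The other activated libraries had 0.051 to 0.334 CPM.

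Of 13 further genes of sphingosine 1-phosphate signaling, which include its other receptors and the enzymes that make and break it down, edgeR called 0 higher and 1 lower with lactate, S1pr4 (13.9% and 11.1% of all tested genes), while its likelihood ratio test, DESeq2 and the media and lactate libraries alone each called 1 higher and 1 lower. S1pr4, the other receptor of this family that T cells carry in quantity, had 75.6, 107.3, 68.7 and 90.3 CPM in media replicates 1 to 4 and 33.5, 48.7, 38.1 and 40.8 CPM with lactate. The groups did not overlap, and it fell by 1.09 on the log2 scale (SE 0.17, adjusted p = 0.000401). The median over the list was -0.01. Against naïve cells 11 of the 13 fell in media and 1 rose (29% and 28.5% of all tested genes), with a median of -2.01, and with lactate 9 fell and 1 rose (32% and 33%). Only 7 of the 13 passed the filter in the media and lactate libraries alone. The others passed only with the naïve libraries included, so the filter in part fixed these counts. Plpp3 (18.4 CPM in naïve cells, 0.090 in media, log2 fold change -7.69, adjusted p = 5.81e-06; without media replicate 4 a ratio of 528 from 2 media counts, 146 to 4370), S1pr3 (10.0 and 0.076 CPM, -7.05, 1.3e-06; without that library 573 from 1 count, 103 to 22700) and S1pr5 (3.32 and 0.089 CPM, -5.05, 5.21e-05; without media replicate 1 56.5 from 3 counts, 19.1 to 276) fell to near 0. Sphk1, a kinase that makes the lipid, had 124 counts in naïve cells and 1 in media, a ratio of 129 (95% counting interval 22.8 to 5150). Naïve replicate 2 held 74 of the 124. The single media count was in replicate 4, so without that library only a bound is left. With lactate Sphk1 had 1, 11, 9 and 26 counts in replicates 1 to 4, and its adjusted p against media was 0.016, 0.000856 with DESeq2 and 0.00866 without lactate replicate 1. Cd69, whose protein binds S1PR1 and takes it off the cell surface, is named here outside the rule and had 453, 138 and 126 CPM in naïve cells, media and lactate (media against naïve -1.71, adjusted p = 0.00157). In media replicates 1 to 4 it had 91.9, 94.9, 87.8 and 279 CPM, so the order of the media and lactate means rests on media replicate 4.

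Of 12 other Krüppel-like factors, relatives of KLF2 that bind the same kind of DNA site, edgeR called 2 higher with lactate and 0 lower, beside 13.9% and 11.1% of all tested genes, with a median of 0.03 (DESeq2, the media and lactate libraries alone and the fit without naïve replicate 4 each called 2 higher and 1 lower). Klf7 rose by 0.74 (SE 0.17, adjusted p = 0.00468), from 61.0 ± 3.90 to 102.1 ± 10.5 CPM (SD, n = 4 each), and its call ended when media replicate 1 (0.0129), 2 (0.0175) or 4 (0.014) was left out, and likewise for lactate replicate 1 (0.0139), 3 (0.0179) and 4 (0.0111). Klf16 rose by 0.67 (SE 0.14, adjusted p = 0.00297) and missed it with media replicate 2 (0.0124) or lactate replicate 3 (0.0131) left out. Against naïve cells 6 of the 12 fell in media and 2 rose (29% and 28.5% of all tested genes), and with lactate 6 fell and 1 rose (32% and 33%). Klf3 fell from 468 ± 211 to 33.7 ± 17.7 CPM (-3.80, adjusted p = 2e-06), with 783 CPM in naïve replicate 4 and 334 to 387 in the others. Klf6 fell from 1363 ± 490 to 245 ± 187 CPM (-2.47, adjusted p = 0.000768), -3.23 without media replicate 4, which had 525 CPM, and -1.46 (adjusted p = 0.0839) with naïve replicate 4 as the only naïve library. Klf12 (-2.18, adjusted p = 0.00173) and Klf1, a red cell factor (-5.07, adjusted p = 0.000652), also fell, the latter with the red cell markers above, and Klf1 missed the threshold with limma voom (-4.08, adjusted p = 0.0102). In naïve replicates 1 to 4 Klf1 had 4.51, 21.7, 2.05 and 0.616 CPM, so its naïve mean rests largely on replicate 2.

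FOXO1 is the transcription factor that keeps Klf2 and Ccr7 on in resting T cells and is shut out of the nucleus by PI3 kinase signaling. Of 15 genes of this axis, edgeR called 7 lower and 0 higher with lactate, beside 11.1% and 13.9% of all tested genes, and the median over the list was -0.56. DESeq2 called 9 lower and 0 higher. Pik3ip1, an inhibitor of PI3 kinase, had 101, 154, 108.5 and 144 CPM in media replicates 1 to 4 and 10.2, 25.2, 18.4 and 19.9 CPM with lactate. The groups lay far apart, and it fell by 2.78 on the log2 scale (SE 0.24, adjusted p = 4.9e-05). In naïve cells it had 158 ± 14.2 CPM, and media did not pass the test against them (-0.32, adjusted p = 0.207). Cdkn1b, the cell cycle inhibitor p27, fell by 1.62 (SE 0.23, adjusted p = 0.000282), from 265 ± 92.6 to 86.3 ± 22.2 CPM. Sesn3, a stress protein that restrains mTORC1, fell by 1.21 (SE 0.13, adjusted p = 6.36e-05), from 283 ± 49.7 to 122 ± 7.20 CPM (SD, n = 4 each). Ikzf2 fell by 1.62 (SE 0.29, adjusted p = 0.00103) and missed the threshold in the low run alone (-1.62, 0.0204). The FOXO genes themselves, named here outside the rule, fell less: Foxo3 by 0.80 (adjusted p = 0.000835), Foxo4 by 0.45 (0.00528) and Foxo1 by 0.42 (0.00647), and with the mouse as a block Foxo4 (-0.42, adjusted p = 0.0129) and Foxo1 (-0.30, 0.0249) missed the threshold. Against naïve cells 9 of the 15 fell in media and 2 rose (29% and 28.5% of all tested genes), with a median of -1.04, and with lactate 13 fell and 0 were called higher by edgeR (32% and 33%). Among these, the log2 fold change in media was -3.92 for Il6ra (adjusted p = 6.12e-08), -2.56 for Btg2 (6.7e-07), -2.46 for Btg1 (5.24e-06) and -1.95 for Il7r (0.00063). Il7r had 1272 CPM in naïve replicate 4 and 347 to 380 CPM in the others, and its change in media was -1.26 (adjusted p = 3.35e-05) without that library and -3.14 (2.62e-06) with it as the only naïve library.

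Chemokine and sphingosine 1-phosphate receptors signal through G proteins and are switched off by receptor kinases, arrestins and RGS proteins. Of 22 such genes, edgeR called 3 lower and 0 higher with lactate (11.1% and 13.9% of all tested genes), with a median of -0.33. This median was -0.17 without media replicate 4 and -0.21 without lactate replicate 2. With the mouse as a block 4 of 20 were lower and 1 was higher, with Rgs2 (-1.50, adjusted p = 0.00902) and Rgs16 (0.59, 0.00736) among them. Arrb1, the arrestin β-arrestin 1, had 443, 543.5, 423 and 377 CPM in media replicates 1 to 4 and 158, 217, 189 and 210 CPM with lactate. The groups did not overlap, and it fell by 1.21 (SE 0.17, adjusted p = 0.000259), to levels still above the 126 ± 29.9 CPM of naïve cells. Rgs11 (-1.19, adjusted p = 0.00795) and Gna13 (-0.65, 0.00467) fell too. Rgs11 missed the threshold with any single one left out of the 8 activated libraries (adjusted p from 0.011 without media replicate 4 to 0.0294 without media replicate 2), with the run as a term (0.0107) and with the title number as a block (0.0109), and Gna13 missed it when media replicate 2 (0.0169) or 3 (0.016) was left out, and for each lactate replicate left out (0.0144, 0.0102, 0.0146 and 0.0151 for replicates 1 to 4) and with the title number as a block (0.0104). Against naïve cells 6 of the 22 fell in media and 7 rose (29% and 28.5% of all tested genes), and with lactate 10 fell and 4 rose (32% and 33%). Grk3, a kinase that turns off CXCR4, fell from 54.3 ± 20.9 to 0.174 ± 0.156 CPM (-8.31, adjusted p = 2.07e-08; -9.00 without media replicate 4), Rgs18 fell by 3.55 (0.000285; -4.34 without media replicate 1), and Rgs16 rose by 3.96 (8.84e-06), from 3.46 ± 1.81 to 53.9 ± 29.4 CPM.

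Of 23 genes for actin assembly, integrin activation and the signaling that directs them, edgeR called 1 higher and 2 lower with lactate, beside 25.1% of all tested genes called. The counts were 2 and 6 with DESeq2, 3 and 6 with the media and lactate libraries alone or without naïve replicate 4, and 4 and 6 at a threshold of 0.05. The list had a median of -0.05. Cdc42, a switch for cell polarity, rose by 0.45 (SE 0.076, adjusted p = 0.000669), from 480 ± 27.1 to 657 ± 31.3 CPM (SD, n = 4 each). Arhgef1, an exchange factor for small GTPases, fell by 0.70 (SE 0.13, adjusted p = 0.00127), from 971 ± 138 to 600 ± 34.2 CPM, and missed the threshold in the low run alone (-0.64, 0.0121). Rhoh fell by 0.59 (SE 0.15, adjusted p = 0.00804) and missed it without naïve replicate 1 (0.0117) and without any activated library but media replicate 3 (from 0.0101 without media replicate 1 to 0.0268 without media replicate 2), in the low run alone (0.021), with the run as a term (0.0116) and with the title number as a block (0.0154). Against naïve cells 8 of the 23 fell with lactate and 5 rose (32% and 33% of all tested genes). In media 10 fell and 4 rose (29% and 28.5%), among them Dock2 (-1.24, adjusted p = 7.87e-06), Pik3r5 (-1.02, 2.46e-05) and Tln1 (-0.95, 5.36e-05), which fell, and Pik3cg, which rose (1.04, 2.77e-05).

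Selectin ligands, the sugars that let effector cells roll on inflamed vessels, are built by fucosyl-, sialyl- and glucosaminyltransferases. Of 18 genes of this synthesis, 4 rose with lactate and 2 fell, beside 13.9% and 11.1% of all tested genes, with a median of 0.27. Fut4 had 12.6, 8.19, 10.9 and 13.0 CPM in media replicates 1 to 4 and 47.9, 36.4, 38.8 and 47.5 CPM with lactate. Every lactate library was above every media library, and it rose by 1.93 on the log2 scale (SE 0.29, adjusted p = 0.000367). Gcnt2 had at most 4 counts in a media library and 1.48 ± 0.646 CPM with lactate (SD, n = 4), a rise of 4.30 (SE 0.70, adjusted p = 0.000586) that rests in part on media replicate 3, which held those 4 counts. Without it the ratio of lactate to media was 80.6 (14.2 to 3210, 1 count of Gcnt2 in media). St3gal2 rose by 1.56 (SE 0.32, adjusted p = 0.00227), and in the low run alone its adjusted p was 0.0199. B4galt1 fell by 0.89 (SE 0.13, adjusted p = 0.000357), from 267 ± 47.6 to 144 ± 13.9 CPM. Named here outside the rule, Selplg fell from 783 to 518 CPM (-0.60, adjusted p = 0.00109), without overlap, and Tpst1 rose (0.79, 0.00779). Fut7 did not pass between lactate and media (0.69, adjusted p = 0.167). With the mouse as a block 7 of 17 genes were higher and 3 lower, a fit to which the shares above do not apply. Against naïve cells, Fut7, which makes the ligands on T cells, rose in media by 2.92 (adjusted p = 5.82e-05) and Chst2 by 2.55 (0.000271), while Gcnt2 fell by 7.06 (1.52e-06; without media replicate 3 naïve cells held 555 times the level of media, 99.3 to 22000) and Gcnt1 by 1.94 (0.000229). Chst2 had 5.77 CPM in naïve replicate 4, far above the other naïve libraries, and its change was 3.36 (adjusted p = 1.28e-06) without that library and 1.26 (0.0187) with it as the only naïve library. In all, 4 genes of this list rose and 6 fell in media (28.5% and 29% of all tested genes), and 6 rose and 6 fell with lactate (33% and 32%).

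Of 6 tested genes around hyaluronan and its receptor Cd44, edgeR called 2 higher and 0 lower with lactate, as did DESeq2 (13.9% and 11.1% of all tested genes by edgeR), with a median of 0.21. Spp1, osteopontin, a secreted ligand of CD44, had 8.00, 3.44, 3.34 and 3.76 CPM in media replicates 1 to 4 and 47.5, 16.7, 89.7 and 49.3 CPM with lactate. The lactate libraries varied widely but none overlapped media, and Spp1 rose by 3.44 (SE 0.54, adjusted p = 0.000448). Vcan, a proteoglycan that binds hyaluronan, rose by 1.93 (SE 0.51, adjusted p = 0.00992), from 0.912 ± 0.118 to 3.51 ± 1.46 CPM, and its call was lost without naïve replicate 1 (0.0124) or 2 (0.0101), without any media replicate (0.0214 to 0.0297) and without lactate replicate 1 (0.0261), 3 (0.0196) or 4 (0.0321). Vcan also missed the threshold with limma voom (0.0133), DESeq2 size factors or total counts (0.0111 each), the run as a term (0.0107) and the low run alone (0.0204). With the mouse as a block 3 of 5 genes were higher and 1 was lower, with a median of 0.75, and the shares above do not apply to that fit. Against naïve cells, Cd74, which is abundant in B and myeloid cells, fell in media by 7.01 (adjusted p = 2.08e-09) along with their markers, Hmmr, a hyaluronan-binding protein of dividing cells, rose by 4.75 (1.84e-07), and Spp1 rose by 1.97 (0.00962). The latter call of Spp1 ended when naïve replicate 1, 2 or 3, any single media library, or the lactate library 1 or 4 was left out (0.0122 to 0.0376), with limma voom (0.0711), DESeq2 size factors (0.0117), at least 10 counts in every library (0.0109) or the title number as a block (0.0147), and with naïve replicate 4 as the only naïve library (0.80, 0.441), and the change was 2.64 (0.00285) without naïve replicate 4. In all, 2 of the 6 rose and 1 fell in media (28.5% and 29% of all tested genes), and 3 rose and 1 fell with lactate (33% and 32%).

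Promoter windows, 250 bases before and 50 after a gene's start, were read for Klf2, Cd44, Cxcr3, Cxcr4 and Ccr9 from a table of RefSeq promoters (GRCm38.p6). Those of Ccr7 and S1pr1 were not read. They were searched on both strands for CACCC, the core of the site that Krüppel-like factors bind, for GTAAACA, a forkhead site that FOXO factors bind, for GGAAAA, the core of an NFAT site, and for TGANTCA, an AP-1 site. CACCC was in 3 of the 5 windows (Klf2, Cxcr4 and Ccr9), as in 57.5% of all 32851 windows, and GGAAAA in 1 (Cd44), as in 23.4%. GTAAACA and TGANTCA were in 0 of the 5, against 3.65% and 7.81% of all windows. TAAATTTA, the core of the site of MEF2 factors, was added after the Klf2 window had been read. It was in that window and in 0.545% of all windows. Of the windows with CACCC, those of Klf2 and Cxcr4 are shown. That of Ccr9, of which 42 bases before the start lie in annotated exons, is not. Each gives the 250 bases before the start, in the direction of transcription, with CACCC or its complement GGGTG, and TAAATTTA, in capitals. The Klf2 window is chr8:72318812-72319061 on the plus strand and its last 29 bases lie in the first exon of the annotation. The Cxcr4 window is chr1:128592300-128592549 on the minus strand and lies before the gene.
Klf2: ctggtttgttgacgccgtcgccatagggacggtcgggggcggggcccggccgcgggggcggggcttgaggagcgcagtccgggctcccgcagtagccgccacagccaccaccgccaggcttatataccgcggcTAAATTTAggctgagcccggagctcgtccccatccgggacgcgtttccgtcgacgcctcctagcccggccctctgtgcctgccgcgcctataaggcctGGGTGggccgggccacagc
Cxcr4: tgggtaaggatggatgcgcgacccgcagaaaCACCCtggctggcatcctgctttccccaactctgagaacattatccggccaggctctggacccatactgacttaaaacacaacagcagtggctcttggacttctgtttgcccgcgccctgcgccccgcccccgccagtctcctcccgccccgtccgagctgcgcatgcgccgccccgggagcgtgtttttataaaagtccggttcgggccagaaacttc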

How the data were processed

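The authors deposited a table of raw counts for 13780 genes with gene lengths, and all of its count columns were used (0 left out). By the submitters' processing notes and the paper's methods, reads were made with bcl2fastq 2.20.0.422 and aligned to GRCm38 with STAR 2.7.5b, which also removed PCR duplicates, and reads in Ensembl exons were counted with featureCounts. Whether the counting used strand is not given. Counts were scaled by TMM in edgeR 4.0.16 (R 4.3.3), genes with at least 1 CPM in 3 libraries were kept, and a quasi-likelihood model with 3 groups was fitted to all 12 libraries (common dispersion 0.0553). P values were adjusted by Benjamini-Hochberg over 13767 genes with a threshold of 0.01. SEs were obtained from the fold change and the F statistic. CPM in the text are scaled by TMM, and TPM use the table's gene lengths, which equal the GENCODE M21 exon length for all 7 members and for 13547 of 13771 matched genes. Log2 differences within mice and runs are of log2 CPM with a prior count of 2. Alternatives used DESeq2 1.42.0 and limma 3.58.1. The steps were tested on simulated data with 200 genes.

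Mice were read from the tags and library numbers of the labels together with the record's count of donors. Pairs from the same mouse had a correlation, across genes after removal of group means, of 0.377 (media 1, lactate 1), 0.214 (media 3, lactate 2) and 0.524 (media 4, lactate 4). Pairs of different mice within a run had 0.0389 (media 1, lactate 2), -0.0336 (media 2, lactate 1), 0.291 (media 2, lactate 2) and 0.0841 (media 3, lactate 1) in the low run and 0.404 (media 4, lactate 3) in the high run. Pairs by title number had 0.377, 0.291, -0.0129 and 0.524.

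The members and the lists of other receptors, sphingosine 1-phosphate genes, Krüppel-like factors, FOXO1 axis, receptor coupling, migration machinery, selectin ligands, hyaluronan partners, ligands and the markers of CD8, memory CD8, B, myeloid, red, CD4 and NK cells and of immediate early and heat shock genes were chosen with earlier results of these data known. From each list, up to 4 called genes with the largest change were eligible to be named for lactate against media and for media against naïve cells. Other genes named are said to be outside this rule or chosen after their values were seen. Intervals and floors cover counting error only. Counts against naïve cells include genes that passed the filter only with the naïve libraries, Ccr9 among them. In the media and lactate libraries alone 10 of 12 Krüppel-like factors, 20 of 22 receptor coupling genes and 17 of 18 selectin ligand genes passed it. So did 5 of 6 hyaluronan partners and 2 of 3 ligands.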

Additional observations from a re-analysis of the deposited data

Results flagged for a closer look

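In these libraries the highest or lowest of a group's 4 values lay apart from the other 3, with a gap, relative to the group's whole range, above Dixon's 95% critical value for 4 samples. Of 198 groups 15 were past this value (7.58%), and chance gives about 5%. The 198 include groups of genes with at most 3 counts in every library, which were not put to the test. The share among the groups tested is thus somewhat higher. Among the members these were Cxcr4 in lactate replicate 1, the lowest at 12.71 CPM, and S1pr1 in naïve replicate 4, the highest at 954.8 CPM. Naïve replicate 4 was also apart for Il7r (1272 CPM), Klf3 (783.2 CPM), Klf7 (127.8 CPM) and Chst2 (5.77 CPM), each the highest, and for the summed immediate early and heat shock genes (2256 CPM), the lowest. Fut7 was highest in naïve replicate 2 at 2.403 CPM. Media replicate 4 was the highest for Klf6 (525.1 CPM) and Cd74 (26.08 CPM), media replicate 1 for Spp1 (7.999 CPM) and media replicate 2 for Sesn3 (357.4 CPM), and media replicate 3 was the lowest for Cxcr6 (4.292 CPM). Dock2 was lowest in lactate replicate 2 at 238.9 CPM and Rhoh in lactate replicate 1 at 105.5 CPM. The causes were not tested.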

How the results depend on the processing

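Shares of all tested genes in the text belong to the main fit, so counts of called genes under the alternatives cannot be set against them. Lactate against media, 3 members were called, and 5 with the likelihood ratio test of edgeR, with DESeq2, with the media and lactate libraries alone, with the library run as a term and at a threshold of 0.05, and 6 with the mouse as a block. S1pr1 passed in these settings at a log2 fold change of -1.301, -1.331, -1.292, -1.431, -1.300 and -0.883 (in this order), and with total counts (-1.335) and at least 10 counts in every library (-1.305). Klf2 passed with the likelihood ratio test (-1.978), DESeq2 (-2.013), the run term (-2.259), the threshold of 0.05 (-1.978) and the mouse as a block (-1.908), and Cd44 with the media and lactate libraries alone (-0.445) and the mouse as a block (-0.510). The block changed no other member's call, and Ccr9 was not tested with it or with at least 10 counts in every library. In the low run alone, added after seeing the data, 1 member was called (Ccr7 -1.016 and Cxcr3 1.350 were not). Leaving out each library in turn gave 1 (without media replicate 2 or lactate replicate 1) to 4 called members and log2 fold changes of -1.131 to -0.866 for Ccr7, -1.495 to -0.922 for S1pr1, -2.423 to -1.659 for Klf2, -0.495 to -0.416 for Cd44, 1.030 to 1.283 for Cxcr3 and -2.068 to 0.009 for Ccr9. The fold change of Cxcr4 was past the threshold in all 26 alternatives.

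Against naïve cells, S1pr1, Klf2, Cxcr4 and Ccr9 kept their calls in every alternative run, as did Ccr7 with lactate. The media value of Ccr7 went from -0.506 to 0.001 over the libraries left out. The lactate value of Cd44 went from -0.157 to 0.227, and with naïve replicate 4 as the only naïve library, also added after seeing the data, it was -0.190 and that of Cxcr3 -0.024. In that setting the lone library is assumed to vary like the other groups. Cxcr3 in media missed the threshold with limma voom (-0.847, adjusted p = 0.017), with the 2 compared groups alone (-0.895, 0.0206) and with the title number as a block (-0.894, 0.0102), among 26 alternatives of which 16 kept the call, in a range of 0.000879 to 0.0287. No scaling moved the median of all genes by more than 0.1. The causes were not tested. The high run held 1 naïve and 1 media library, and counts of at most 9 per activated library limit Ccr9. The measured RNA came from bulk cells of 1 time point, and these data hold no protein values.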
